A study of Mus musculus with 14 samples.

Results

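Immediate early genes are switched on within minutes of a signal, from factors already present in the cell, and their transcripts are short-lived. The data described here are the 34 immediate early and activation genes, followed in mouse blood progenitor cells. They were taken as a named list of genes, not selected by a threshold on measured values. The tables spell gene names in capitals (FOS, JUNB, ZFP36, EGR1). The first count table has rows for 32 of the genes and the second for all 34, with Egr3 and Atf3 found in the second table only, out of 22842 genes that both tables list.

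Kinase cascades that end on serum response factor and on CREB-type factors start transcription of these genes. The list holds subunits of the AP-1 transcription factor (Fos, Fosb, Fosl2, Jun, Junb, Jund) with the related Atf3 and Maff, and zinc finger and nuclear receptor factors (Egr1 to Egr3, Klf2, Klf6, Nr4a1, Nr4a2) with Myc. It also holds proteins that end the response: phosphatases and inhibitors that switch signalling off (Dusp1, Dusp2, Dusp5, Dusp6, Nfkbia, Nfkbiz, Skil, Socs3) and proteins that speed RNA decay or slow division (Zfp36, Zfp36l1, Btg1, Btg2). Handling of fresh tissue is known to induce several of these genes.

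The study traced the descendants of blood stem cells in unperturbed adult mice with an inducible label. Single lineage-negative cells carrying the mark named Tom in the labels were sorted into plates of 96 wells and sequenced from the 3′ ends of transcripts with a modified Smart-seq2 protocol. Mouse m4539 was taken at day 3 (2 plates) and mouse m4533 at day 10 (3 plates). Mice m605 (2 plates), m606 (2 plates) and m4528 (4 plates) were taken at day 17, and 1 more plate mixed m605 with m606. All groups share the lineage-negative, Tom-positive sort; the strain, the exact age, the driver of the label, the inducing agent and the event from which days were counted were not stated in the labels used here.

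The first table holds m4539, m4533 and m4528, and the second m605 and m606, so table and mouse cannot be told apart. Of 9357 barcodes, 1010 reached 500 genes and 10000 counts, 585 of them from the first table and 425 from the second. Totals over kept cells were 11070047 to 18152885 counts per plate, and all 96 well barcodes recur across plates, so cells are identified by plate and barcode together. Marker genes outside the list placed 187 cells in a stem-like class, 119 in a megakaryocyte-like, 106 in an erythroid-like, 100 in a monocyte-like, 73 in a neutrophil-like and 41 in a basophil-like class, and left 384 ungated. Check markers not used by the gate were highest in their own class for 7 of 10 stem, 7 of 7 megakaryocyte, 8 of 8 erythroid, 6 of 6 monocyte, 7 of 7 neutrophil and 3 of 5 basophil genes. In stem-like cells, macrophage markers summed to 0.929 to 43.4 CPM (counts per 1000000 counts) per mouse with C1qa at 0 in each of the 5 mice and 4 to 7 of 8 markers at 0, and stromal or endothelial markers summed to 33.2 to 376 CPM with Cxcl12 at 0 in each of the 5 mice and 4 to 6 of 9 at 0. B cell, T or NK cell and plasma cell markers summed to 4.68 to 491, 1.23 to 55.3 and 188 to 458 CPM. Rows in both tables were found for 4 of 6 B cell, 2 of 6 T or NK cell and 2 of 3 plasma cell markers. Ms4a1, Igkc and Trac were at 0 in each of the 5 mice, and the other B cell and T or NK cell markers carried the sums. The part of such RNA in the levels below was not tested.

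The promoters of 4 members are printed to show the 2 kinds of signal-response motif that the list carries; RefSeq promoters on the GRCm38.p6 build were found for 28 of the 34 members. Each sequence is the 250 bases before the start of the gene, 5′ to 3′ on the strand of the gene, and capitals mark the motifs. Fos, the founding AP-1 subunit, lies on the plus strand, and its sequence is chr12:85473640-85473889 with TGACGT, a core of the cyclic AMP response element, starting 66 bases before the gene. Zfp36 lies on the minus strand (chr7:28379229-28379478) and has a CArG box, the binding motif of serum response factor, starting at 58 bases. Dusp1 is on the minus strand (chr17:26508473-26508722) with the full element TGACGTCA at 143 bases and a further TGACGT at 191 bases. Btg2 is also on the minus strand (chr1:134079156-134079405) with TGACGTCA at 166 bases.
Fos: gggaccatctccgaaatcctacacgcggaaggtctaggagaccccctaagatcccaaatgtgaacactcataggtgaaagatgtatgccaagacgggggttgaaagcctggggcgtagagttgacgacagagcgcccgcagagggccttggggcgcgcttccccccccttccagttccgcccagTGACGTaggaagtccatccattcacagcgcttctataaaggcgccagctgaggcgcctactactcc
Zfp36: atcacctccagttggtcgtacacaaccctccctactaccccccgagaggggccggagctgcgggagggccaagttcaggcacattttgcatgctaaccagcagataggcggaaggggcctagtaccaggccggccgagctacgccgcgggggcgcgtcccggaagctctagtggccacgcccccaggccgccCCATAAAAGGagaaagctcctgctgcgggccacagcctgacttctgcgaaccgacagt
Dusp1: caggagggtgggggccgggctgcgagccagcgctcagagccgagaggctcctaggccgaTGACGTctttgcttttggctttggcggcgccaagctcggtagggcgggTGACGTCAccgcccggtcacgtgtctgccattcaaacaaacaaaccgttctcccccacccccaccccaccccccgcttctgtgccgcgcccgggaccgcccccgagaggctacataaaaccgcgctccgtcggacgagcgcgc
Btg2: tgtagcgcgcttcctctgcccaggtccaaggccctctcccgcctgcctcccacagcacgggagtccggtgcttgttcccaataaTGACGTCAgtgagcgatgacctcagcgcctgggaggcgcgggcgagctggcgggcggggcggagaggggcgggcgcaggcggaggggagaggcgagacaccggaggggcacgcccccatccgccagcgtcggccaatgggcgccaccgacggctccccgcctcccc

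Searched on both strands of the same window, TGACGTCA was found in 4 of the 28 members (Btg2, Dusp1, Maff, Ppp1r15a), and in 1.77% of 27025 genes. Its core TGACGT, which every TGACGTCA also contains, was found in 9 members and in 7.29% of genes. The CArG box was found in 3 members (Dusp5, Egr2, Zfp36) and in 1.62% of genes. The AP-1 motif TGANTCA, where N is any base, was found in 1 member (Zfp36l1) and in 7.82% of genes. These are matches of letters in a window and do not show binding.

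The early genes were summed in CPM over the 32 members found in both tables. These sums were lower in every differentiating class than in stem-like cells of the same mouse, and lowest in erythroid-like cells. At day 17 (m605, m606, m4528) erythroid-like cells held 2466, 2429.8 and 2387 CPM, against 32153, 30624 and 13496 CPM in stem-like cells. The erythroid-like sums lay close together only with Myc included. Without Myc they were 2374, 2269 and 1500.1 CPM, against 31650.0, 30215 and 13154 CPM in stem-like cells, so that m605 and m606 lay above m4528 in both classes. Neutrophil-like cells held 6084, 6448 and 3409.7 CPM and monocyte-like cells 12247, 11415 and 4608 CPM in the same mice. Megakaryocyte-like cells were present in all 5 mice: 4738 CPM at day 3 (m4539), 4007 CPM at day 10 (m4533), and 15707, 12640.4 and 6291 CPM at day 17, against 12410.4, 8432, 32153, 30624 and 13496 CPM in stem-like cells. The 2 mice with enough basophil-like cells (m606, m4528) had 17339 and 7793 CPM there.

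Stem-like cells also held the fewest counts in all, and without scaling the picture differed by class. At day 17 the median erythroid-like cell held 215546, 287152 and 431289 counts, against 44582, 61678 and 90079 counts in stem-like cells (m605, m606, m4528). In counts per cell, the members summed to 762, 718 and 1074 in erythroid-like cells, against 1938, 2202 and 1393 in stem-like cells. The order of classes was kept for erythroid-like cells in all 3 mice. Neutrophil-like cells of these mice held 1363, 1607 and 1334 counts, lower than stem-like cells in each. Monocyte-like cells held 1615, 2124 and 1613 counts, higher than stem-like cells in m4528 only. Basophil-like cells of m606 and m4528 held 2672 and 1469 counts, higher than stem-like cells in both. In megakaryocyte-like cells the same sums were 1488 (day 3), 2396 (day 10) and 2293, 1674 and 1439 (day 17), against 1632, 2282, 1938, 2202 and 1393 in stem-like cells, higher in 3 of 5 mice. A lower CPM in that class therefore stood beside similar counts per cell and larger totals; the part of total counts per cell in the difference was not tested.

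**Figure D1:**
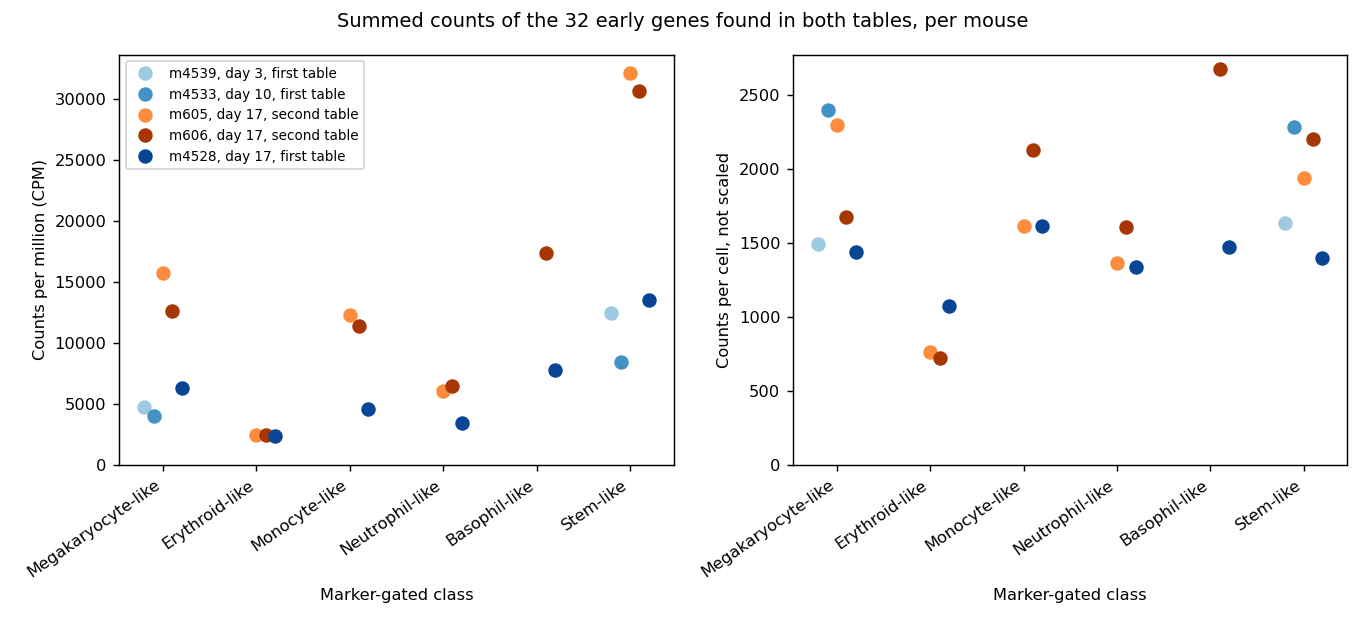
Summed counts of the 32 early genes found in both tables by marker-gated class (x axis), as CPM on the left and as unscaled counts per cell on the right, with 1 point per mouse. Erythroid-like cells lie lowest in both panels, and stem-like cells of m605 and m606 lie at 32153 and 30624 CPM.

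Among AP-1 subunits, Fos was lower in megakaryocyte-like, erythroid-like and neutrophil-like cells than in stem-like cells. Junb was lower in those classes and in monocyte-like cells, and Jun in erythroid-like, monocyte-like and neutrophil-like cells. Fos had 432, 366 and 204 CPM in erythroid-like cells (m605, m606, m4528), against 3695, 5463 and 1296 CPM in stem-like cells. The ranges did not overlap in these mice, and Fos was 12.3-fold lower (log2 difference -3.62 ± 0.41 SE, adjusted p = 6.84e-05, edgeR). Stem-like cells of m4533 held 239 CPM, below the erythroid-like values of m605 and m606. In megakaryocyte-like cells Fos had 142, 41.1, 2681, 2022 and 857 CPM (m4539, m4533, m605, m606, m4528), against 844, 239, 3695, 5463 and 1296 CPM in stem-like cells. It was lower in 5 of 5 mice, but the ranges of the 2 classes overlapped across mice (log2 difference -1.59 ± 0.30, adjusted p = 0.00846). In monocyte-like cells Fos had 2409, 2797 and 819 CPM and did not pass the test (log2 difference -1.07 ± 0.37, adjusted p = 0.0923). In neutrophil-like cells it had 1433, 1209 and 344 CPM (log2 difference -2.15 ± 0.38, adjusted p = 0.00351).

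Junb, a subunit known in mice to restrain blood stem cell expansion, had 125, 52.2, 265, 152 and 100.2 CPM in megakaryocyte-like cells of m4539, m4533, m605, m606 and m4528, against 685, 551, 1039, 1247 and 349 CPM in stem-like cells. Every megakaryocyte-like value lay below every stem-like one, a 6.18-fold difference (log2 -2.63 ± 0.29, adjusted p = 0.0002, edgeR). Erythroid-like cells held 77.7, 78.3 and 55.5 CPM of Junb (m605, m606, m4528), with a log2 difference from stem-like cells of -3.68 ± 0.39 (adjusted p = 4.31e-05). Monocyte-like cells held 269, 219 and 132 CPM and neutrophil-like cells 153, 136 and 147 CPM, also below every stem-like value (adjusted p = 0.0029 and 0.00115). For Jun, erythroid-like cells held 189, 183 and 181 CPM, close together across the 3 mice, against 1787, 2614 and 1609 CPM in stem-like cells (log2 difference -3.41 ± 0.26, adjusted p = 4.07e-06). Jun was lower in monocyte-like cells at 920.1, 1110.3 and 448 CPM and in neutrophil-like cells at 580.4, 696 and 329 CPM (adjusted p = 0.00455 and 0.000428). Fosb had 40.0, 31.9 and 28.8 CPM in erythroid-like and 70.0, 109 and 46.3 CPM in neutrophil-like cells, against 543, 812 and 85.6 CPM in stem-like cells. It was lower in both comparisons (log2 differences -3.85 ± 0.79 and -2.76 ± 0.75, adjusted p = 0.00562 and 0.0409).

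Jund, which many cells express without induction, had 19.9, 19.999 and 5.23 CPM in erythroid-like cells of m605, m606 and m4528, against 109, 91.9 and 27.0 CPM in megakaryocyte-like and 49.8, 101 and 12.5 CPM in stem-like cells. It passed the test against megakaryocyte-like cells (log2 difference -2.40 ± 0.57, adjusted p = 0.0267) and not against stem-like cells (adjusted p = 0.0664). Fosl2 and the small Maf protein gene Maff stayed at or below 30.4 and 7.81 CPM in every tested sum, and neither passed in any class. Atf3, a stress-induced repressor of the ATF family listed in the second table alone, had 24.3 and 27.2 CPM in erythroid-like cells of m605 and m606, against 1005 and 208 CPM in stem-like cells.

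Among the zinc finger factors, Egr1, an early target of growth factor signalling, had 35.2, 19.8 and 9.28 CPM in erythroid-like cells (m605, m606, m4528), against 1817, 1329 and 622 CPM in stem-like cells. This was a log2 difference of -6.03 ± 0.79 (adjusted p = 0.000224, edgeR), and the 2 sets of values were far apart. Egr1 was also lower in monocyte-like (85.8, 201 and 7.40 CPM), neutrophil-like (53.9, 45.7 and 80.3 CPM) and megakaryocyte-like cells (96.1, 99.7, 382, 310.4 and 133 CPM for m4539, m4533, m605, m606 and m4528). Log2 differences were -3.96 ± 0.73, -3.98 ± 0.72 and -2.41 ± 0.52, with adjusted p of 0.00407, 0.00419 and 0.0175. Per cell, Egr1 exceeded 10 counts in 7 of 34 and 5 of 34 erythroid-like cells of m605 and m606 (20.6% and 14.7%), against 9 of 12 and 26 of 32 stem-like cells (75% and 81.2%). Exact 95% intervals were 8.70% to 37.9% and 4.95% to 31.1%, against 42.8% to 94.5% and 63.6% to 92.8%, although the stem-like cells were the shallower ones, and in m4528 the shares were 5.88%, against 45.8%. With cells thinned to 10000 counts, Egr1 was found in 20.6%, 20.6% and 5.88% of erythroid-like cells (m605, m606, m4528), against 91.7%, 78.1% and 54.2% of stem-like cells. For Fos the shares above 10 counts were 76.5%, 91.2% and 41.2% of erythroid-like cells, against 91.7%, 93.8% and 50% of stem-like cells. Thinned, they were 76.5%, 85.3% and 35.3%, against 100%, 96.9% and 58.3%.

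Klf6 and Klf2 are Krüppel-like factors, and Klf2 is known for holding lymphocytes in a resting state. Klf6 had 111, 82.0 and 28.6 CPM in erythroid-like and 607, 651 and 63.8 CPM in neutrophil-like cells (m605, m606, m4528), against 5433, 3637 and 499.7 CPM in stem-like cells. Within each mouse the class values lay below the stem-like value (log2 differences -5.07 ± 0.43 and -2.79 ± 0.38, adjusted p = 6.76e-06 and 0.000598). Monocyte-like cells held 1305, 1052 and 292 CPM of Klf6 (adjusted p = 0.0231), and megakaryocyte-like cells 299, 116, 1594, 1418 and 327 CPM in m4539, m4533, m605, m606 and m4528, against 504, 356, 5433, 3637 and 499.7 CPM in stem-like cells (adjusted p = 0.0177). Klf2 had 26.2, 19.2 and 11.5 CPM in erythroid-like cells, against 1049.6, 1345 and 21.0 CPM in stem-like cells (log2 difference -5.06 ± 1.06, adjusted p = 0.00637). In m4528 both Klf2 values were low and close together, so that most of this difference came from the second table. The orphan nuclear receptor gene Nr4a1 had 0.476, 0.895 and 0.131 CPM in erythroid-like and 0.798, 1.94 and 0.22 CPM in monocyte-like cells, against 260.0, 133 and 0.807 CPM in stem-like cells. It passed the test in both (adjusted p = 0.0133 and 0.03), but on 15 and 14 counts summed over 3 mice, and m4528 had under 1 CPM in stem-like cells too.

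Myc, a driver of growth and division, did not pass in any class against stem-like cells. It had 91.3, 161 and 887 CPM in erythroid-like cells (m605, m606, m4528), against 503, 409 and 342 CPM in stem-like cells, lower in the second table and higher in m4528. Nr4a2 did not pass in any class. Egr2 stayed at or below 3.01 CPM and was left out of the tests by the filter on low counts, and Egr3, listed in the second table, had 12.2 CPM in megakaryocyte-like cells of m605 and at most 0.260 CPM in the other classes and in m606.

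Zfp36, which encodes tristetraprolin, a protein that marks early response transcripts for decay, was the member that passed in the most classes. It had 81.8, 56.6 and 32.7 CPM in erythroid-like cells (m605, m606, m4528), against 3829, 3346 and 1056 CPM in stem-like cells. That is 45.2-fold lower (log2 difference -5.50 ± 0.30, adjusted p = 1.70e-07, edgeR), with no overlap. In megakaryocyte-like cells it had 403, 145, 689.5, 966 and 368 CPM (m4539, m4533, m605, m606, m4528), against 917, 764, 3829, 3346 and 1056 CPM in stem-like cells, lower in 5 of 5 mice (log2 difference -1.97 ± 0.20, adjusted p = 0.00013). Monocyte-like cells held 1066, 1076 and 416 CPM and neutrophil-like cells 339, 526 and 163 CPM of Zfp36 (m605, m606, m4528). Log2 differences from stem-like cells were -1.53 ± 0.25 and -2.87 ± 0.27 (adjusted p = 0.00193 and 2.87e-05). Basophil-like cells of m606 and m4528 held 765 and 376 CPM, against 3346 and 1056 CPM in stem-like cells (log2 difference -1.97 ± 0.30, adjusted p = 0.00528), the only call in that class.

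Btg2, an antiproliferative gene that recruits deadenylases to transcripts, had 54.7, 61.7 and 54.2 CPM in erythroid-like cells (m605, m606, m4528), against 537, 544 and 44.4 CPM in stem-like cells. It passed the test (log2 difference -2.06 ± 0.56, adjusted p = 0.0279) but was lower in 2 of 3 mice, with m4528 the other way. Its relative Btg1 had 14.8, 10.8 and 4.71 CPM, against 30.4, 38.2 and 26.2 CPM (log2 difference -2.17 ± 0.62, adjusted p = 0.0349). Zfp36l1 did not pass in any class.

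Of the signal brakes, Dusp1, a nuclear phosphatase of MAP kinases, had 381, 271 and 158 CPM in erythroid-like and 1528, 1015 and 449.8 CPM in monocyte-like cells (m605, m606, m4528), against 3620.4, 3384 and 2157 CPM in stem-like cells. Neither class overlapped stem-like cells of the same mice (log2 differences -3.83 ± 0.30 and -1.91 ± 0.28, adjusted p = 4.18e-06 and 0.000838, edgeR). Stem-like cells of m4533 held 1294 CPM, below the monocyte-like value of m605. Neutrophil-like cells held 619.8, 748 and 228 CPM (log2 difference -2.80 ± 0.29, adjusted p = 7.66e-05). Megakaryocyte-like cells held 455, 339, 2828, 1690.3 and 943 CPM (m4539, m4533, m605, m606, m4528), against 1589, 1294, 3620.4, 3384 and 2157 CPM in stem-like cells, and were lower in 5 of 5 mice (log2 difference -1.34 ± 0.22, adjusted p = 0.00341). Dusp2, a phosphatase of the same family that activated immune cells express, had 11.3, 10.2 and 32.2 CPM in erythroid-like cells, against 1174, 472 and 695 CPM in stem-like cells (log2 difference -5.08 ± 0.85, adjusted p = 0.00143). In megakaryocyte-like cells Dusp2 had 111, 40.0, 95.9, 167 and 74.4 CPM, against 419, 79.8, 1174, 472 and 695 CPM in stem-like cells of the 5 mice (log2 difference -2.45 ± 0.61, adjusted p = 0.034). The ERK phosphatase genes Dusp5 and Dusp6 did not pass in any class.

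Nfkbiz, an atypical nuclear inhibitor protein of NF-κB that also acts as a coactivator, had 3.52, 3.78 and 0.392 CPM in erythroid-like and 14.8, 6.02 and 2.65 CPM in neutrophil-like cells (m605, m606, m4528), against 160.4, 125 and 84.4 CPM in stem-like cells. It was lower in both (log2 differences -6.62 ± 0.97 and -4.72 ± 0.88, adjusted p = 0.000549 and 0.00492), without overlap. In megakaryocyte-like cells it had 2.03, 11.3, 114, 25.5 and 4.52 CPM (m4539, m4533, m605, m606, m4528), against 35.9, 110.4, 160.4, 125 and 84.4 CPM, with a log2 difference of -2.99 ± 0.66 (adjusted p = 0.0195). Nfkbia, the classical inhibitor of NF-κB, did not pass in any class: erythroid-like cells held 425, 580.1 and 136 CPM, against 967, 397 and 1549 CPM in stem-like cells, higher in m606 and lower in the other two mice. Socs3, an inhibitor of cytokine receptor signalling, had 0 counts in neutrophil-like cells of all 3 mice, which allows up to 0.165 CPM over the pooled 18133934 counts. Stem-like cells held 31.8, 11.3 and 0.404 CPM of it (m605, m606, m4528), so both classes of m4528 were under 1 CPM and the difference came from the second table. Against 9.09 CPM over the pooled stem-like cells of those mice it was at least 54.9-fold lower there (adjusted p = 0.0376, edgeR; the floor is 3 counts over the group and covers counting error only). Skil, a repressor of TGF-β signalling, did not pass in any class.

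Among the remaining members, Ppp1r15a, whose product reverses the translation block of the stress response, had 268, 233, 251, 353 and 204 CPM in megakaryocyte-like cells (m4539, m4533, m605, m606, m4528), against 1426, 392, 1127, 1095 and 318 CPM in stem-like cells. It was lower in 5 of 5 mice (log2 difference -1.60 ± 0.25, adjusted p = 0.00291, edgeR), and in erythroid-like, monocyte-like and neutrophil-like cells log2 differences were -2.96 ± 0.33, -1.68 ± 0.32 and -2.84 ± 0.33, which all passed (adjusted p = 6.84e-05, 0.00474 and 0.000198). Its levels there were 114, 135 and 63.1 CPM in erythroid-like, 442, 201 and 116 CPM in monocyte-like and 139, 122 and 61.1 CPM in neutrophil-like cells (m605, m606, m4528). Ier2, a short nuclear early response gene, had 260.2, 228 and 395 CPM in erythroid-like cells (m605, m606, m4528), against 3367, 3206 and 2466 CPM in stem-like cells. The difference was 10.2-fold (log2 -3.35 ± 0.33, adjusted p = 2.80e-05), with no overlap. Ier2 also passed in monocyte-like cells at 1418, 1097 and 774 CPM and in neutrophil-like cells at 569, 592 and 657 CPM (adjusted p = 0.0103 and 0.000797). In megakaryocyte-like cells it had 1192, 1006, 2581, 1449 and 869 CPM (m4539, m4533, m605, m606, m4528), against 2729, 1677, 3367, 3206 and 2466 CPM in stem-like cells (adjusted p = 0.0276).

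Ier3, which modulates cell survival, had 17.7, 15.4, 23.5, 73.9 and 14.6 CPM in megakaryocyte-like cells (m4539, m4533, m605, m606, m4528), against 88.0, 182, 87.1, 143 and 57.3 CPM in stem-like cells (log2 difference -2.14 ± 0.57, adjusted p = 0.0448, edgeR). It was likewise lower in erythroid-like, monocyte-like and neutrophil-like cells, with log2 differences of -3.25 ± 0.74, -2.51 ± 0.73 and -2.59 ± 0.72 (adjusted p = 0.011, 0.048 and 0.0447). Its levels there were 6.66, 19.1 and 11.1 CPM, 21.5, 6.88 and 18.5 CPM and 20.4, 26.6 and 9.47 CPM (m605, m606, m4528 in each class), all below the stem-like values of those mice. Rhob, a signalling GTPase with a short-lived transcript, had 5.14, 2.59 and 4.57 CPM in erythroid-like cells (m605, m606, m4528), against 194, 74.3 and 23.0 CPM in stem-like cells (log2 difference -3.95 ± 0.86, adjusted p = 0.00828). Ier5 and Gadd45b did not pass in any class.

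**Figure D2:**
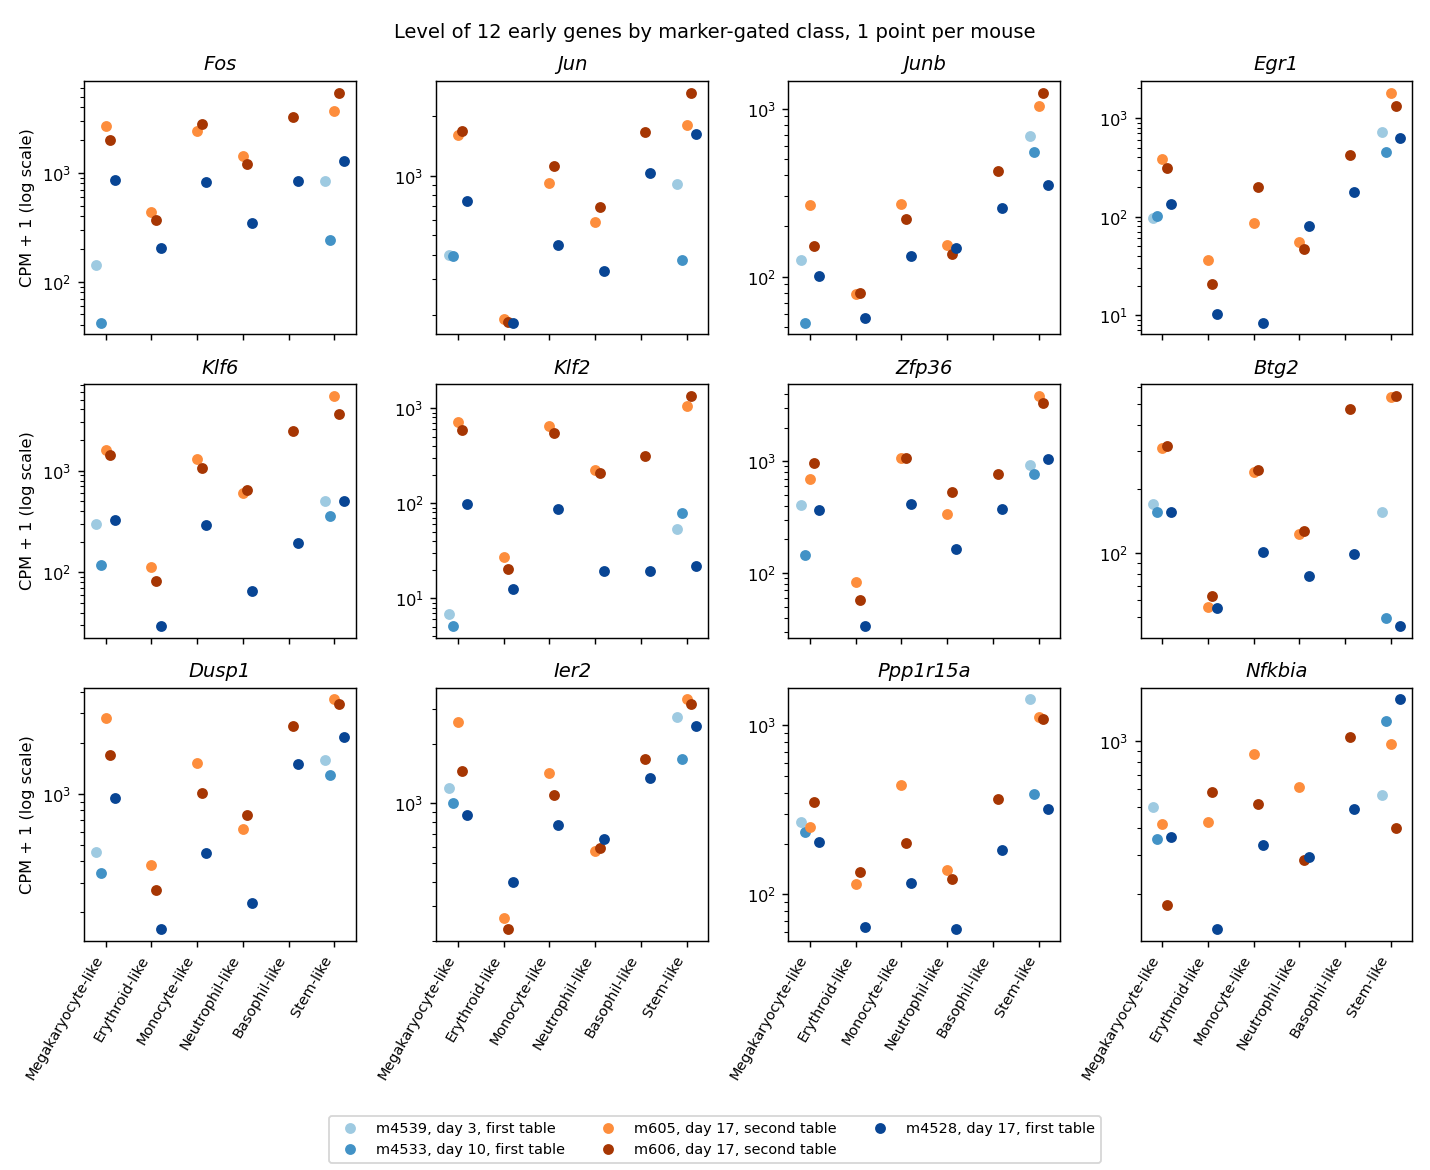
Levels of 12 early genes (CPM + 1, log scale) by marker-gated class, with 1 point per mouse and class. Stem-like cells stand at the right of each panel; erythroid-like cells lie lowest for most of these genes, and the second table (orange and brown) lies above m4528 for Fos, Klf2 and Klf6 in the classes shown.

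Counted over the list, 31 of the 32 shared members passed the filter on low counts and entered the test. In erythroid-like cells 18 of these 31 were lower than in stem-like cells at an adjusted p under 0.05 in edgeR and 0 were higher, where 6.18% of the 14409 genes tested were lower and 6.25% higher. The median log2 difference was -3.41 over the 31 and 0.10 over all genes. Without m605 or without m606 the count was 11. Over all genes, called either way, 1791 passed in the full fit, 865 without m605 and 413 without m606. In neutrophil-like cells 13 were lower and 0 higher (2.78% of all genes lower, 3.96% higher), with a median of -2.23 against 0.08 over all genes. The count was 8 without m4528 and 6 without m606. Over all genes 971 passed in the full fit, 217 without m4528 and 217 without m606.

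In megakaryocyte-like cells 11 members were lower and 0 higher, where 2.01% of genes were lower and 2.62% higher, and the medians were -1.34 over the members and 0.05 over all genes. This count was 2 without m606, 6 without m4533 and 7 without m4539, m4528 or m605. Over all genes, called either way, 667 passed in the full fit. Without m606, m4533, m4539, m4528 and m605 the numbers were 119, 428, 616, 162 and 321. In monocyte-like cells 10 were lower and 0 higher (3.25% of genes lower, 4.75% higher), with medians of -1.45 and 0.10. The count was 2 without m606, 5 without m4528 and 6 without m605. Over all genes 1153 passed in the full fit, and 304, 235 and 509 without these mice in the same order. In basophil-like cells 1 member, Zfp36, was lower and 0 were higher (0.111% of genes lower, 0.659% higher), and this call was lost without m606 or m4528, which leaves 1 mouse.

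Where only sums of at least 20 cells were used, 3 mice with stem-like cells and 2 residual degrees of freedom remained. Then 0 members passed in the erythroid-like, megakaryocyte-like, neutrophil-like and basophil-like comparisons, and 1, Dusp1, in monocyte-like cells (log2 difference -1.84, adjusted p = 0.0423, edgeR). Of all 16604 genes tested in that fit, 0, 0, 2 and 0 passed in these comparisons and 43 in monocyte-like cells. Under every other alternative run, calls were kept in erythroid-like cells by 11 members (Dusp1, Dusp2, Egr1, Fos, Ier2, Jun, Junb, Klf6, Nfkbiz, Ppp1r15a and Zfp36). They were kept in neutrophil-like cells by 6 (Dusp1, Ier2, Jun, Klf6, Ppp1r15a and Zfp36) and in megakaryocyte-like cells by 2 (Junb and Zfp36). The other calls against stem-like cells named above were each lost under at least 1 alternative. Of 83 calls over all contrasts between classes, 28 were kept without m606, 46 without m605, 55 without m4528, 74 without m4539 and 77 without m4533.

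**Figure D3:**
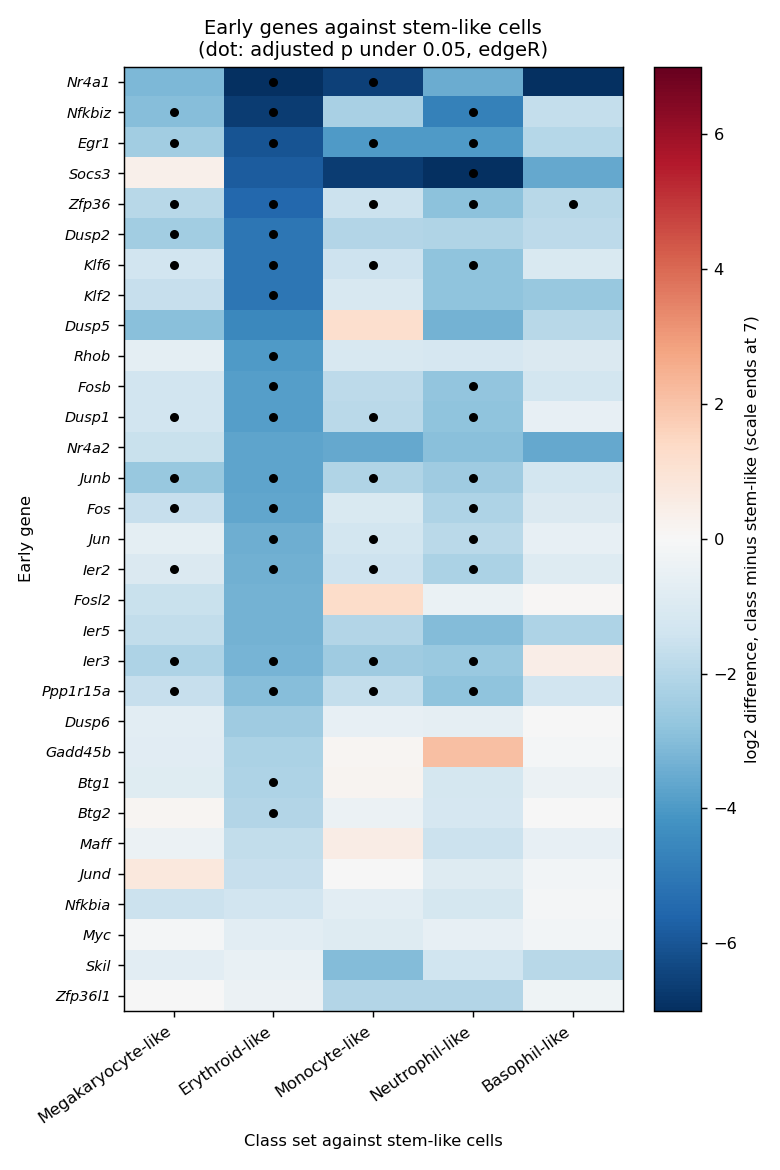
Log2 difference of each tested early gene (rows) between a marker-gated class and stem-like cells (columns); blue is lower in the class, and a dot marks an adjusted p under 0.05 (edgeR, mouse as a term). The erythroid-like column carries 18 dots, the basophil-like column 1.

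Erythroid-like cells were also set against the other classes, in contrasts chosen after their low levels had been seen. Against megakaryocyte-like cells 13 members were lower and 0 higher, where 2.48% of genes were lower and 1.35% higher. Against monocyte-like cells 12 were lower and 0 higher (4.03% of genes lower, 1.53% higher), and against neutrophil-like cells 5 were lower, Dusp1, Fos, Jun, Klf6 and Zfp36, and 0 higher (3.19% of genes lower, 1.25% higher). Zfp36 had log2 differences of -3.53 ± 0.27, -3.97 ± 0.28 and -2.63 ± 0.27 in these 3 contrasts (adjusted p = 4.90e-06, 2.52e-06 and 3.86e-05, edgeR), and Klf6 had -3.75 ± 0.40, -3.62 ± 0.40 and -2.27 ± 0.38 (adjusted p = 9.34e-05, 7.02e-05 and 0.00291). Without m606 the counts were 4, 2 and 1, and without m605 they were 5, 6 and 1. Over all genes, called either way, 553, 802 and 640 passed in the full fit. The numbers were 83, 110 and 92 without m606, and 256, 289 and 226 without m605.

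Whether these class differences were themselves unequal between the tables was tested as an interaction. In edgeR 0 members and 0 of the 14409 genes passed for any class. At an unadjusted p under 0.05 there were 6 members for megakaryocyte-like, 7 for erythroid-like, 4 for monocyte-like, 7 for neutrophil-like and 4 for basophil-like cells, where 4.28% to 5.70% of all genes did so. DESeq2 called 147, 100, 55, 47 and 175 genes in the same order of classes. Among them were the members Gadd45b for megakaryocyte-like and basophil-like cells, Btg2, Myc and Skil for erythroid-like, Egr1 for monocyte-like and Nr4a1 for neutrophil-like cells. Btg2 had a DESeq2 log2 interaction of -3.19 ± 0.73 SE. It was lower in erythroid-like than in stem-like cells in m605 and m606. In m4528, the only mouse of the first table with enough erythroid-like cells, it was slightly higher (54.2, against 44.4 CPM).

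Within stem-like cells the early genes differed widely between mice. Fos had 844, 239, 3695, 5463 and 1296 CPM in m4539 (day 3), m4533 (day 10) and m605, m606 and m4528 (day 17), with 1 mouse each at days 3 and 10. The day 10 mouse was lowest and both mice of the second table were highest. Klf2 had 52.9, 77.3, 1049.6, 1345 and 21.0 CPM in the same order, Klf6 504, 356, 5433, 3637 and 499.7 CPM and Btg2 155, 48.8, 537, 544 and 44.4 CPM. For each of these 3 genes m605 and m606 stood above all 3 mice of the first table. Ppp1r15a had 1426, 392, 1127, 1095 and 318 CPM, highest at day 3, and Nfkbia 567, 1231, 967, 397 and 1549 CPM, highest in m4528.

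Compared at day 17 alone, 23 of the 26 members with a mean of at least 20 CPM over the 3 mice were higher in both m605 and m606 than in m4528, where 28.3% of the 6771 genes at that level were. This count is partly set by the filter, since Jund, Dusp5, Nr4a1, Nr4a2 and Skil had under 20 CPM in m4528 and reached the mean through the other two mice. Among members with at least 20 CPM in m4528 itself, a rule added after the data were seen, 18 of 22 were higher in both and 1, Nfkbia, was lower in both, beside 16.4% of 6531 genes higher in both. The median log2 ratio of the second table over the first, on CPM plus 1, was 1.17 over these 22 members and -0.69 over all genes so chosen. This rule picks genes by their level in m4528 and so favours lower ratios and shares. Under the filter on the mean the medians were 1.78 and -0.22. Genes were not matched to the members by level. With at least 20 CPM in m4528, 17 of 21 members were higher in both in megakaryocyte-like cells (17.2% of genes) and 15 of 17 in monocyte-like cells (19.6%). In neutrophil-like cells 10 of 17 were (17.2%), and in erythroid-like cells 10 of 15 (22.4%). In neutrophil-like and in erythroid-like cells 5 members were lower in both, with Myc and Ier2 among them in each class. In megakaryocyte-like cells 2 were lower in both, Myc and Nr4a2, and in monocyte-like cells 2, Myc and Fosl2. With 2 mice against 1 there was no test, and the comparison is one of mouse and table together.

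The plates of one mouse were close for some genes and not for others. In stem-like cells Fos had 683 and 7702 CPM in the 2 plates of m605 (5 and 7 cells), 5028 and 5747 CPM in those of m606 (14 and 18 cells), and 919 and 777 CPM in those of m4539 (40 and 50 cells). The 2 plates of m605, with few cells, were far apart for Fos. Ier2 had 3508 and 3181 CPM, 2497 and 3671 CPM, and 2950.1 and 2530.2 CPM in the same plates. The plate that mixed m605 and m606 had 7381 CPM of Fos, 5028 CPM of Zfp36 and 2095 CPM of Klf2 in its 14 stem-like cells.

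**Figure D4:**
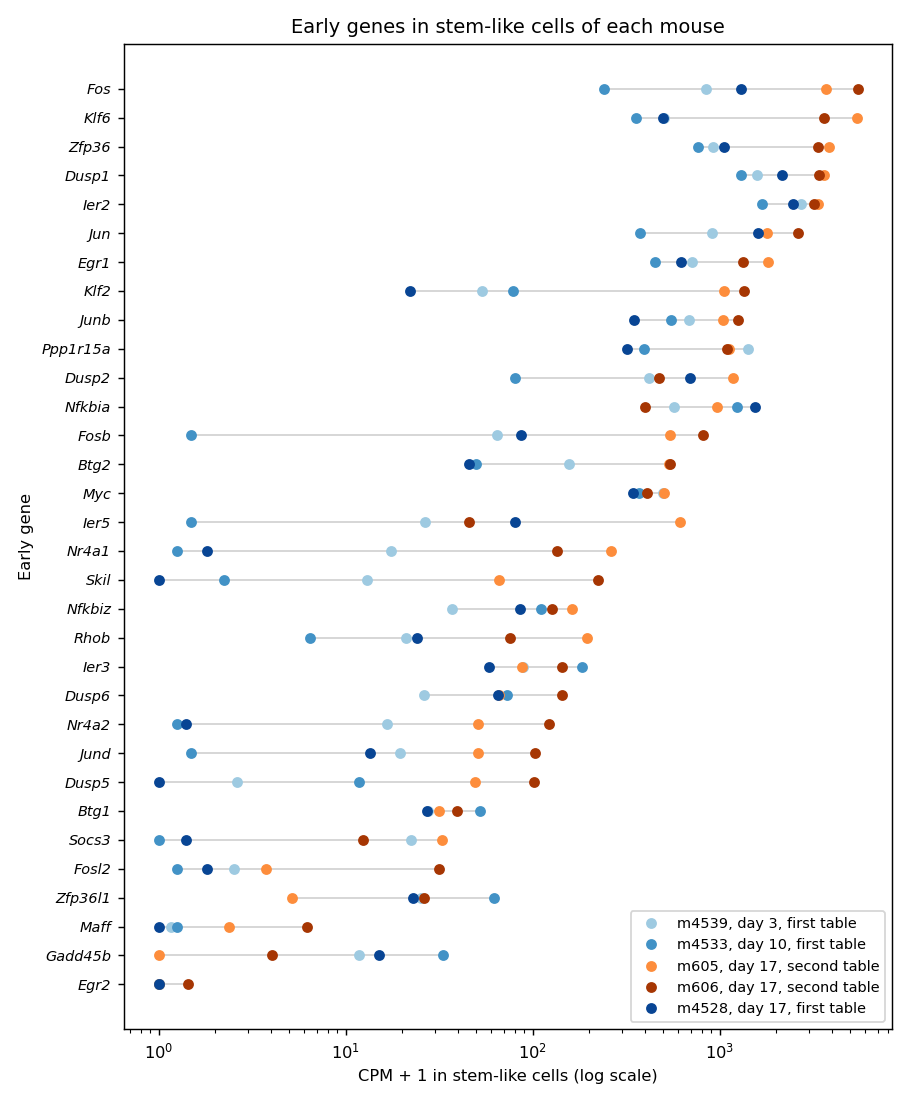
Level of each early gene in stem-like cells (CPM + 1, log scale, x axis), with 1 point per mouse and a grey line over the range. The mice of the second table (orange and brown) lie at the right end for Fos, Klf6, Zfp36, Klf2 and Btg2, and Nfkbia is highest in m4528.

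The change with day was fitted as a slope on 5 mice, with a term for the table, which leaves 2 residual degrees of freedom and takes the slope from 1 mouse per day. Over all kept cells 0 members and 0 of 18438 genes passed in edgeR, with 5 members and 9.79% of genes at an unadjusted p under 0.05. These 5 all had negative slopes: Ppp1r15a (-2.19 log2 per 14 days, adjusted p = 0.294), Junb (-1.71), Egr1 (-1.71), Ier2 (-1.02) and Dusp2 (-1.39). DESeq2 called 496 genes, with 3 of these members, Egr1, Junb and Ppp1r15a, at adjusted p of 0.00987, 0.00142 and 1.39e-05. Stem-like cells made up 47.4% of kept cells in m4539, 14.02% in m4533 and 8.33% in m4528, so fewer cells of a type and less RNA per cell cannot be told apart in these sums. Within stem-like cells 0 of 31 members and 0 of 12647 genes passed in edgeR, 2 members (Ppp1r15a and Skil) and 5.94% of genes did at an unadjusted p under 0.05, and DESeq2 called 10 genes and 0 members.

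From cell to cell within the stem-like class, early genes varied together weakly in m605, m606 and m4528, while in m4539 and m4533 the median over their pairs lay near that over all genes. Spearman's rho was computed across the stem-like cells of each mouse for 27 members with a mean of at least 20 CPM, beside all 7123 genes at that level. Fosb, Jund, Ier5, Nr4a1, Nr4a2 and Skil reached that mean mainly through m605 and m606, and had 0.246 to 1.23 CPM in m4533. The comparison of rho between mice is therefore partly set by this filter. The median over pairs of members (351 pairs, 300 in m4528) was 0.028 in m4539 (90 cells), 0.024 in m4533 (15 cells), 0.153 in m605 (12 cells), 0.150 in m606 (32 cells) and 0.134 in m4528 (24 cells). Over pairs of all genes it was 0.011, 0.011, -0.049, 0.010 and -0.014 in the same order. Pairs of members above 0 made up 58.1% in m4539 and 53.0% in m4533, beside 53.9% and 51.6% of pairs of all genes. Pairs above 0.3 made up 2.28%, 21.1%, 33.9%, 25.1% and 23% in m4539, m4533, m605, m606 and m4528. Of pairs of all genes they made up 0.438%, 16.8%, 20.3%, 6.40% and 9.69%. Within plates 1 and 2 of m4539 the medians were 0.046 and 0.051 over members, beside 0.006 and 0.009 over all genes. The points of each value share a mouse, its plates and a range of depth, and the values are descriptions.

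Egr1 with Ier2 gave the highest mean over mice, 0.457, with 0.299 in m4539, 0.539 in m4533, 0.329 in m605, 0.630 in m606 and 0.489 in m4528. Egr1 with Fos followed at 0.431 and Dusp1 with Zfp36 at 0.426, and both pairs were positive in all 5 mice. By its median rho with the other members, Zfp36 stood first (mean over mice 0.262), before Dusp1 (0.229), Junb (0.198) and Egr1 (0.198). Myc (-0.0034), Jund (-0.013) and Ier5 (-0.040) stood at the other end. Summed over the members, single stem-like cells ranged between 928 and 56064 CPM in m606 (median 31153) and between 496 and 38938.5 CPM in m4539 (median 12849.9), so cells of low and of high level came from the same mouse.

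**Figure D5:**
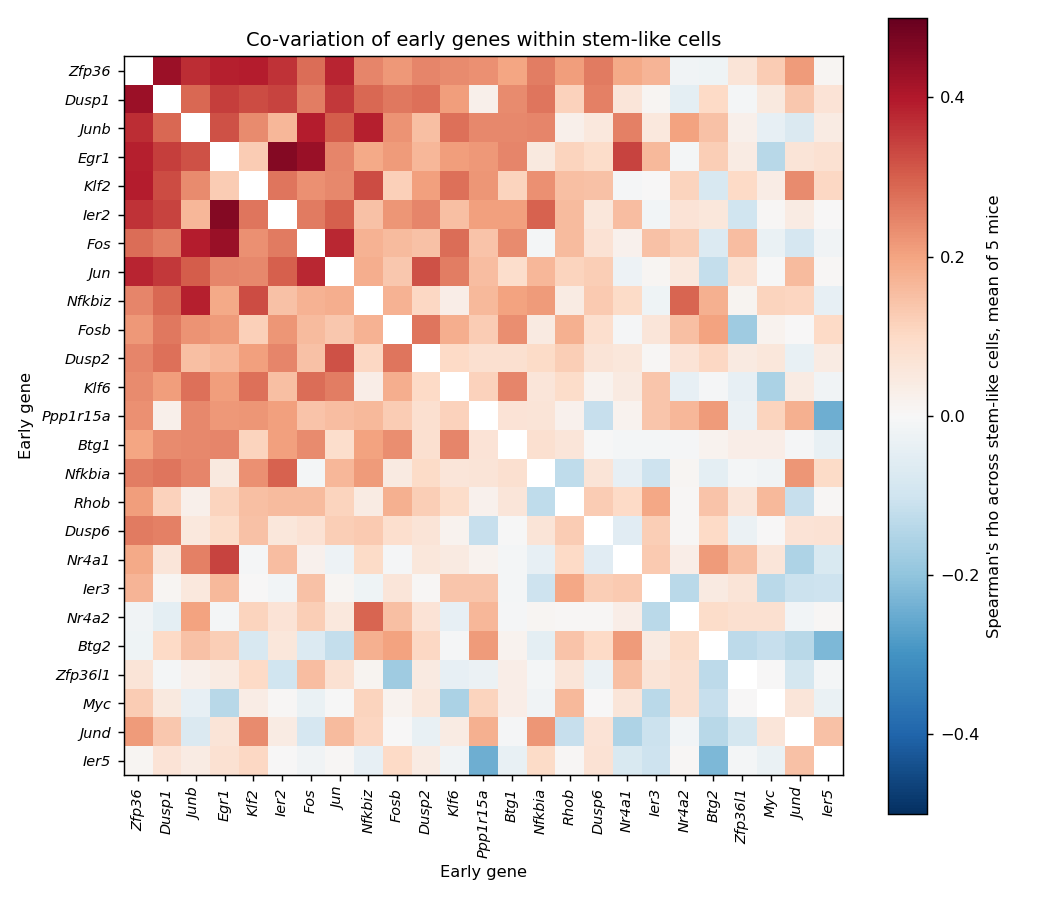
Spearman's rho between early genes across stem-like cells, averaged over 5 mice (colour), for the 25 members with a value in every mouse, ordered by their median rho with the rest. The corner of Zfp36, Dusp1, Junb, Egr1, Klf2, Ier2, Fos and Jun is red, and Egr1 with Ier2 reaches 0.457.

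Outside the list, the genes whose levels followed the summed members most closely included H3f3b (mean rho over 5 mice 0.402), Eif1 (0.373), Nfe2 (0.368), Tap1 (0.349), Lmo2 (0.330), Pnrc1 (0.312), Vgll4 (0.293), Puf60 (0.286) and Ddx5 (0.285). They were picked as the highest on this same value. H3f3b had 0.557 in m4539, -0.271 in m4533, 0.503 in m605, 0.573 in m606 and 0.647 in m4528, so 1 of 5 mice went the other way. Pnrc1, Puf60, Tap1 and Lmo2 had -0.116, -0.097, -0.003 and -0.003 in m4539, and Ddx5 had -0.007 in m4533. Eif1, Nfe2 and Vgll4 were positive in all 5 mice. Except for H3f3b, each gene named here was highest in m605, which had 12 cells. Values there were 0.841 (Pnrc1), 0.754 (Eif1), 0.678 (Puf60), 0.671 (Nfe2), 0.670 (Tap1), 0.636 (Lmo2 and Ddx5) and 0.607 (Vgll4). With total counts per cell the summed members had a rho of -0.238 in m4539, -0.164 in m4533, -0.259 in m605, 0.021 in m606 and -0.154 in m4528. With the summed cycling genes it was -0.169, 0.204, 0.126, -0.133 and 0.069.

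Other early response genes outside the list, 50 of 58 of them tested, had 10 lower and 0 higher in erythroid-like cells (6.18% of all genes lower), with a median of -2.16. The receptor-signalling regulator gene Rgs1 had 21.0 ± 4.47 CPM there, against 1752 ± 926 CPM in stem-like cells (SD, n = 3 mice each; log2 difference -6.29 ± 0.71 SE, adjusted p = 6.84e-05, edgeR). Plk2 and the chemokine gene Ccl4 had log2 differences of -8.84 and -5.89. In megakaryocyte-like cells 4 were lower and 0 higher (2.01% of all genes lower): Gem, Ccl4, Cebpd and Irf1. In neutrophil-like cells 6 were lower, Gem, Klf4, Plk2 and Tob1 the most, and 1 was higher (2.78% and 3.96% of all genes). Klf4 is also a marker of the monocyte gate, so its level helped to place the cells and its call is no separate result. In monocyte-like cells 1, Cebpd, a factor of myeloid differentiation, was higher (407 ± 96.3 CPM, against 32.5 ± 25.6 CPM in stem-like cells, SD, n = 3; adjusted p = 0.000903), and 1, Rgs1, was lower (4.75% and 3.25% of all genes), so the share of the list lower there was no larger than that of all genes.

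Upstream kinases and factors, among them those of the MAP kinase cascade, gave 0 calls of 27 tested in megakaryocyte-like, monocyte-like, neutrophil-like and basophil-like cells in edgeR. Of all genes, 2.01%, 3.25%, 2.78% and 0.111% were lower there and 2.62%, 4.75%, 3.96% and 0.659% higher. In erythroid-like cells 1 of 27 was called lower, a smaller share than the 6.18% of all genes. This was Elk3, a ternary complex factor that pairs with serum response factor (0.741 ± 0.423 CPM, against 46.5 ± 47.5 CPM in stem-like cells; adjusted p = 0.0164). Of 14 heat shock genes, 6 were higher and 0 lower in erythroid-like cells, 2 higher and 0 lower in megakaryocyte-like cells, and 0 passed in basophil-like cells (6.25%, 2.62% and 0.659% of all genes higher). In monocyte-like cells 4 and in neutrophil-like cells 3 were higher, and 1, Dnajb4, was lower in both (4.75% and 3.96% of all genes higher). Hspa1a, an inducible chaperone gene with a near-identical copy (Hspa1b), had 92.5 ± 12.1 CPM in erythroid-like cells, against 8.26 ± 7.93 CPM in stem-like cells (log2 difference 4.13 ± 1.03 SE, adjusted p = 0.0181).

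Of 20 cycling genes, 19 were higher than in stem-like cells in erythroid-like, 17 in monocyte-like, 15 in neutrophil-like, 14 in megakaryocyte-like and 3 in basophil-like cells, with 0 lower in each (6.25%, 4.75%, 3.96%, 2.62% and 0.659% of all genes higher). The proliferation marker gene Mki67 had 277 ± 69.2 CPM in erythroid-like cells, against 5.15 ± 2.72 CPM in stem-like cells (log2 difference 5.48 ± 0.68 SE, adjusted p = 0.00015, edgeR). Their part in the level of the early genes was not tested.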

How the data were processed

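Single-cell RNA was measured in 14 plates from 5 mice. The values used are raw read counts per gene and barcode, as the authors deposited them in 2 tables; per the labels' protocols the libraries come from a modified Smart-seq2 method, and molecular identifiers are not stated. The submitters' processing notes name the GRCm38 build; the labels used here name no aligner or counter. The members and gene lists were chosen with earlier results of these data known.

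Barcodes with at least 500 genes and 10000 counts were kept (10155 was the lowest total), which does not remove doublets; no doublet caller was run. Classes came from marker genes, as log2(CPM + 10) standardised within each table. A class needed 3 of its markers above 10 counts, a mean score above 0.3 and a lead of 0.3 over the next class. This rule was set after the data were seen. A cell's plate gives its mouse, and the plate that mixes 2 mice entered no test.

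Counts of the 22842 shared genes were summed per mouse and class (at least 10 cells, 21 sums) and tested with edgeR 4.0.16 (TMM, filterByExpr, quasi-likelihood) with mouse as a block, 11 residual degrees of freedom and Benjamini-Hochberg adjustment over all genes tested. Classes compared come from the same mice, which is where the pairing comes from, so mouse is the replicate. The p-values rest on how differences between classes vary from mouse to mouse. The estimate of that spread is shared over all 21 sums, not taken from the mice of each contrast alone. The SE is the log2 difference divided by the square root of F. Members are named by role, with the value of each mouse for those called against stem-like cells; other lists give up to 4 called genes by size of change. Of the 10 genes outside the list with the highest mean rho with the summed members, 1 is not reported here. Interactions of table and class, and slopes per 14 days, were fitted likewise. Intervals for shares are exact (Clopper-Pearson, 95%) and, like floors, cover counting error only. Alternatives were DESeq2 1.42.0, limma 3.58.1, other filters and gates, no block, and each mouse left out. R 4.3.3, Python 3.11.15, numpy 2.4.6, scipy 1.17.1, pandas 2.3.3 and matplotlib 3.10.9 were used. Only the edgeR test of erythroid-like against stem-like cells was tried on simulated data, which held no differences between mice.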

Additional observations from a re-analysis of the deposited data

Results flagged for a closer look

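Over all kept cells, the 4 plates of m4528 were compared for the 21 members at a sufficient level, and in 3 of them 1 plate stood apart from the others; chance flags about 1 in 20 such groups. Egr1 had 257 CPM on plate 8, against 146, 128 and 137 CPM on plates 6, 7 and 9. Fosb had 29.8 CPM on plate 7, against 76.4, 74.2 and 83.0 CPM on plates 6, 8 and 9. Nfkbia had 602 CPM on plate 8, against 409, 414 and 437 CPM on the other plates.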

How the results depend on the processing

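No called difference of a member between classes changed direction under any alternative run. Of 83 calls of a member in a contrast between classes, 26 were kept under every alternative other than the minimum of 20 cells, which kept 2 and leaves 12 sums and 2 residual degrees of freedom. With DESeq2 the members called lower against stem-like cells numbered 17 in megakaryocyte-like, 17 in monocyte-like, 20 in neutrophil-like and 6 in basophil-like cells, and 12 in erythroid-like against neutrophil-like cells. Over all 14409 genes, called either way, DESeq2 called 2139, 2467, 2272, 1187 and 1502 in these contrasts. In edgeR the numbers were 667, 1153, 971, 111 and 640. With at least 20 cells the members called lower numbered 0 in the megakaryocyte-like, erythroid-like, neutrophil-like and basophil-like comparisons and 1 in monocyte-like cells. Of all 16604 genes tested there, 0, 0, 2, 0 and 43 were called. For erythroid-like cells the members were 0 against megakaryocyte-like, 1 (Zfp36) against monocyte-like and 0 against neutrophil-like cells. Over all genes these calls numbered 0, 29 and 3. A stricter gate gave 6 in megakaryocyte-like cells, and a gate standardised over both tables, added after seeing the data, gave 0 in basophil-like cells. With no replicate block, 67 of the 83 calls were kept and 2 members were called in erythroid-like against neutrophil-like cells, with 522 of 14409 genes called there. DESeq2 called 1 member in the interaction for megakaryocyte-like, 3 for erythroid-like, 1 for monocyte-like, 1 for neutrophil-like and 1 for basophil-like cells, and 3 in the slope over all cells, where edgeR called 0. Leaving out 1 mouse at a time gave 2 to 7 members in megakaryocyte-like, 11 to 20 in erythroid-like, 2 to 10 in monocyte-like, 6 to 13 in neutrophil-like and 0 to 1 in basophil-like cells. For erythroid-like cells it gave 4 to 13 against megakaryocyte-like, 2 to 13 against monocyte-like and 1 to 7 against neutrophil-like cells, and 0 to 0 for interactions and slopes. Over all genes, called either way, the ranges against stem-like cells were 119 to 616 (megakaryocyte-like), 413 to 1878 (erythroid-like), 235 to 1189 (monocyte-like) and 217 to 1004 (neutrophil-like). For erythroid-like against megakaryocyte-like, monocyte-like and neutrophil-like cells they were 83 to 602, 110 to 878 and 92 to 756. The causes were not tested. Thinned to 10000 counts, the share of stem-like cells with Fos was 60% in m4539 and 100% in m605. Few stem-like cells (12 in m605, 15 in m4533) limit the precision of their levels.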
